A study of Mus musculus with 4 samples.

Results

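The genes described here are those at which open chromatin was called at 3 or more different promoter peaks in at least 1 of the libraries. They were chosen by the number of peaks called in these same libraries, so the peak counts below are a description. The authors' annotation was used, in which every peak, here on chromosomes 1 to 19, X and Y, is called promoter, distal or intergenic for a gene. Of 17563 genes with a promoter peak, 319 met the rule (1.82%), and they held 985 promoter peaks in the Mertk knockout library and 726 in the wild-type library. The libraries came from livers of Mertk knockout mice and of wild-type mice, all of which had undergone bile duct ligation, a model in which blocked bile flow leads to liver fibrosis. The labels do not describe the Mertk allele, the animals' age or sex, the time after ligation, or how many animals stand behind a library. Nuclei were read with the 10x Genomics Multiome assay, in which a transposase cuts accessible DNA (ATAC) and RNA is tagged in the same droplets. Each genotype had 1 ATAC library, so there is no replicate and no test between genotypes, and every difference below describes these libraries. In such tissue libraries, fewer cells of a type and less open chromatin per cell cannot be told apart.

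Many mammalian genes can be transcribed from more than 1 promoter. An alternative promoter gives a transcript its own first exon, and with it often a different beginning of the protein, and it can be active in another cell type than the first. CpG-rich promoters tend to be open in most tissues, whereas CpG-poor ones are more often tied to a cell type. Liver genes such as the growth hormone receptor gene, and blood cell genes such as those of transcription factors, are textbook cases of promoter choice.

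The libraries differed in depth. Called nuclei numbered 5339 with 83996145 ATAC fragments in the Mertk knockout library, against 5828 with 40858512 in the wild-type library. Peaks numbered 106319 in the knockout library and 72302 in the wild-type library. The labelled tissue was checked against 83 hepatocyte genes, of which 79 had a promoter peak in the knockout library and 36 in the wild-type library. Alb, the gene of serum albumin, had 1 promoter peak in the knockout library and 0 in the wild-type library. Of 52 stellate cell and fibroblast genes, 45 had a promoter peak in the knockout library and 28 in the wild-type library. For 79 Kupffer cell and macrophage genes the numbers were 73 and 74, in the same order, and for 66 T and natural killer cell genes 31 and 41. The part of depth and of these markers in the results below was not tested.

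Foxp1, the gene of a forkhead transcription factor needed in B cell development, shows how unlike the promoters of a gene can be. It had 5 promoter peaks in the knockout library and 4 in the wild-type library, spread over 494 kb of chromosome 6. RefSeq windows at transcript starts (GRCm38.p6, the assembly behind mm10) fell in 3 of its sites. The 250 bases before each start are shown 5' to 3', with every CG in capitals, and sites are numbered from the 5' end of the gene.
Foxp1 site 1 (chr6:99520994-99521243, minus strand, open in Mertk knockout alone): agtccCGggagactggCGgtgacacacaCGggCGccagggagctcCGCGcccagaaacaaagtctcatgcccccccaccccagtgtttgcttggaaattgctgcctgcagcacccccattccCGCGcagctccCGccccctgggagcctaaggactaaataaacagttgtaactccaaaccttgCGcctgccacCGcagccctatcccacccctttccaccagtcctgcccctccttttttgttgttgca
Foxp1 site 4 (chr6:99266516-99266765, minus strand, open in both libraries): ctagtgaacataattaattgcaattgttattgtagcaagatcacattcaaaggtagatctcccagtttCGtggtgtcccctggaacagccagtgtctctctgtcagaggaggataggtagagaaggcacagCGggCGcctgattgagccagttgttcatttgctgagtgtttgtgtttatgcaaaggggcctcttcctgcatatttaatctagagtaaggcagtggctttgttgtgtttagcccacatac
Foxp1 site 5 (chr6:99028299-99028548, minus strand, open in both libraries): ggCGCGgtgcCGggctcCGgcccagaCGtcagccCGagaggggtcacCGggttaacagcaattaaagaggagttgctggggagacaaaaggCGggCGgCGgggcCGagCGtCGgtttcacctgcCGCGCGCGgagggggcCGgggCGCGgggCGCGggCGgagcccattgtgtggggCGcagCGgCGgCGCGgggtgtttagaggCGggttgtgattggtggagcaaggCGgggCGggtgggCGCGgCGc
The site farthest downstream held 34 CpG in these 250 bases and a CpG content of 1.12 times that expected from its C and G. Site 1, open in the knockout library alone, held 11 (0.52 times), and site 4, open in both, held 3 (0.24 times).

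Egfl7, which encodes a protein secreted by endothelial cells, the lining of blood vessels, had 3 promoter peaks in the knockout library and 2 in the wild-type library within 6.76 kb of chromosome 2. Each of its 3 sites held a RefSeq start, so the same bases are shown for all of them.
Egfl7 site 1 (chr2:26580833-26581082, plus strand, open in Mertk knockout alone): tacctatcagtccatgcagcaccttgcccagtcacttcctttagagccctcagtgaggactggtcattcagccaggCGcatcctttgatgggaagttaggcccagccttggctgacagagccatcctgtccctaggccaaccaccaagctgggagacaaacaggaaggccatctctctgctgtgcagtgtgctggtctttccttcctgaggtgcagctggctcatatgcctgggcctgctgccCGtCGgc
Egfl7 site 2 (chr2:26583615-26583864, plus strand, open in both libraries): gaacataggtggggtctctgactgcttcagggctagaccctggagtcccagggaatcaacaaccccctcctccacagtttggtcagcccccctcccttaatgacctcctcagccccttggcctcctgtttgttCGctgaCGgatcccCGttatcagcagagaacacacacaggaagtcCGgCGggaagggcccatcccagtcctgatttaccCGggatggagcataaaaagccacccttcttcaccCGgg
Egfl7 site 3 (chr2:26586386-26586635, plus strand, open in both libraries): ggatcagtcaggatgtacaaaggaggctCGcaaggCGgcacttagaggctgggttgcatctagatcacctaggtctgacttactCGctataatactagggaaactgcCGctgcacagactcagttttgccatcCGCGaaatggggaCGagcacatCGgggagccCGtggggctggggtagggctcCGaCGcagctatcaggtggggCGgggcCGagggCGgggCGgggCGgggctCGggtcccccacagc
The site at the 5' end was open in the knockout library alone and held 3 CpG. Sites 2 and 3 were open in both libraries and held 7 and 17. Only the window of site 3 contained the GC box GGGCGG, searched on both strands.

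Ghr encodes the growth hormone receptor, through which hepatocytes make insulin-like growth factor. It had 4 promoter peaks in the knockout library and 2 in the wild-type library over 113 kb of chromosome 15. The shared pair lay at the 5' end and held these windows.
Ghr site 1 (chr15:3583353-3583602, minus strand, open in both libraries): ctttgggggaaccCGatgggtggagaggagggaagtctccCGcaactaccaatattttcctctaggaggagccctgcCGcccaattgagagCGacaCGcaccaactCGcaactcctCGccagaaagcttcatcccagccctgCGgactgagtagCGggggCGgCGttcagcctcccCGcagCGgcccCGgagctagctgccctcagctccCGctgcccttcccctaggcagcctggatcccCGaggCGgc
Ghr site 2 (chr15:3581843-3582092, minus strand, open in both libraries): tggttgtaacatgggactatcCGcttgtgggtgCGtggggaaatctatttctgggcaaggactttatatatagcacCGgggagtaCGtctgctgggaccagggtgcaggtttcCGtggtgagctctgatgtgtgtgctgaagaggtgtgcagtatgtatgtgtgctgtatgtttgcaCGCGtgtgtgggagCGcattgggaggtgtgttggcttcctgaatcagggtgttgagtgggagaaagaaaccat
Site 1 held 17 CpG and site 2 held 8. Site 2 also contained TATAAA, and both contained CCAAT, on either strand. The other two Ghr sites, at 3471150 to 3472008 and 3472132 to 3472821, lay 111 kb inside the gene and were open in the knockout library alone.

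Across all members, the knockout library had more promoter peaks at 193 of the 319 genes, the same number at 71 and fewer at 55. Over all genes with a promoter peak, 20.0% had more in the knockout library and 5.55% had more in the wild-type library. A gene could enter through either library, so these counts partly follow from the rule: 98 genes had 3 or more promoter peaks in both libraries, 173 in the knockout library alone and 48 in the wild-type library alone. The excess ran from 4 more in the knockout library, at 8 genes, to 2 more in the wild-type library, at 11 genes. The knockout library had 1.36 times as many member promoter peaks as the wild-type library, against 1.19 times for all promoter peaks.

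**Figure D1:**
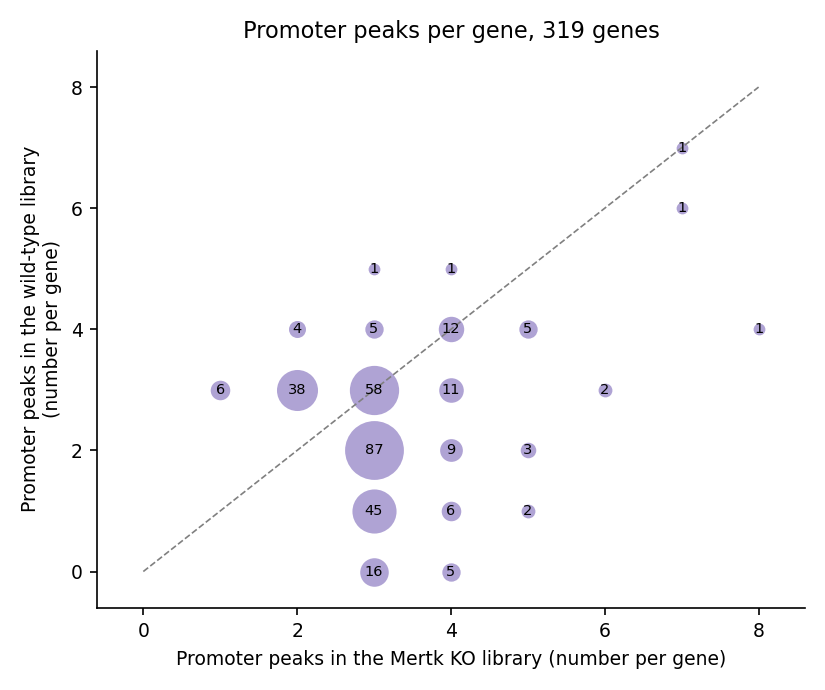
Number of promoter peaks per gene in the Mertk knockout library (horizontal axis) and in the wild-type library (vertical axis) for the 319 genes. Each bubble carries the number of genes at that pair of counts, and the dashed line marks equal counts. Of the genes, 193 lie below the line and 55 above it.

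Promoter use was followed through promoter sites, each the union of the overlapping promoter peaks of a gene, called open in a library that had any peak overlapping it by at least 1 bp. The members had 1057 sites. Of these 329 (31.1%) were open in the knockout library alone, 75 (7.10%) in the wild type alone and 653 (61.8%) in both. Over the 20403 sites of all genes the shares were 18.5%, 4.73% and 76.7%, in the same order. Counted by peaks, 33.4% of the 985 knockout member peaks and 10.3% of the 726 wild-type member peaks had no overlap in the other library, against 21.1% and 6.49% of all promoter peaks. Genes with 2 promoter peaks at most, 2068 in number, had 25.5% of their sites open in the knockout library alone and 9.12% in the wild-type library alone, and the 15176 genes with 1 peak at most had 15.8% and 3.39%. The knockout share was highest in the members, and the wild-type share in the genes with 2 peaks at most. These classes were set by the highest count over the same libraries, so the shares partly follow from the rule. Among genes with 3 or more promoter peaks in both libraries, 84.6% of sites were open in both. In the members, 75 genes had every site open in both libraries, 162 had shared sites plus sites of the knockout library alone, 47 had shared sites plus sites of the wild-type library alone, and 17 had all 3 kinds. A further 18 genes had sites in the knockout library alone.

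The label of separate promoters holds for part of the genes. Sites of a gene lay a median of 3.82 kb from their neighbour. Of 738 gaps, 220 (29.8%) were under 500 bp and 301 (40.8%) were over 10 kb. When sites under 500 bp apart were merged into regions, 170 of the 319 genes still had 3 or more, 138 had 2 and 11 had 1. The merged regions numbered 837, of which 26.2% were open in the knockout library alone, 4.90% in the wild type alone and 68.9% with peaks of both. Span from the first to the last peak of a gene had a median of 27.6 kb (quartiles 7.95 and 75.0 kb). It exceeded 100 kb in 63 genes and was under 5 kb in 49.

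Several genes with many sites encode parts of the cytoskeleton. Plec, which encodes plectin, a linker of intermediate filaments to the cell's adhesion sites, had 8 promoter peaks in the knockout library and 4 in the wild-type library over 36.2 kb of chromosome 15 (76195246 to 76231439). Its 4 sites open in the knockout library alone included a neighbouring pair at 76207966 to 76208402 and 76208792 to 76209646. Shroom3, which encodes an actin-binding protein that shapes epithelial cells, had 5 peaks in the knockout library and 1 in the wild-type library. The shared Shroom3 site was the one farthest downstream, 214 kb inside the gene, and the sites at the gene's 5' end and at 125 and 173 kb were open in the knockout library alone. Add3, the gene of a spectrin-actin linker, had 6 and 3 peaks, knockout first, over 55.7 kb. Ank3, the gene of the membrane adaptor ankyrin-G, named for its excess in the knockout library, had 4 knockout peaks and 0 wild-type peaks across 528 kb.

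At other genes with many sites, most or all sites were shared. Tcf4, which encodes a basic helix-loop-helix transcription factor, had 7 promoter peaks in each library, all 7 sites shared, over 250 kb of chromosome 18. Atxn7l1 had 4 peaks in the knockout library and 5 in the wild-type library, and all 5 sites were open in both. Zmynd8, the gene of a chromatin reader protein, had 7 peaks in the knockout library and 6 in the wild-type library, with 1 site (chromosome 2, 165884487 to 165885207) open in the knockout library alone. Nedd4l was an exception. This gene of a ubiquitin ligase that acts on ion channels had 6 knockout and 3 wild-type peaks, and its 3 sites of the knockout library alone stood side by side between 65021743 and 65026264 on chromosome 18. Of 36 cytoskeleton genes among the members, 20 had more promoter peaks in the knockout library, 8 equal numbers and 8 fewer. Their 133 sites were open in the knockout library alone at 40 (30.1%) and in the wild-type library alone at 10 (7.52%), close to the shares of all members.

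**Figure D2:**
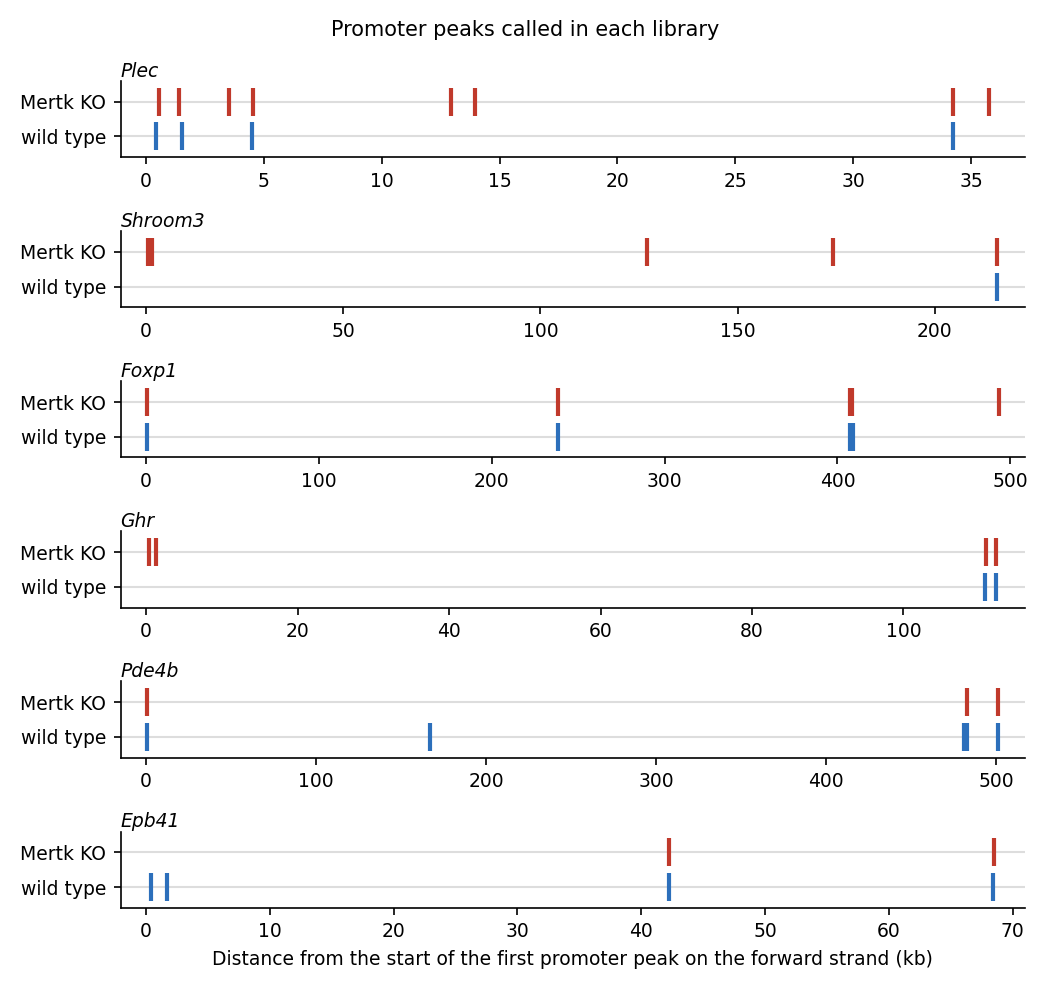
Promoter peaks of 6 genes in the Mertk knockout library (upper row) and the wild-type library (lower row), each tick a peak centre, by distance in kb from the first peak on the forward strand. Plec, Shroom3, Foxp1 and Ghr have ticks in the knockout row with none below them, and Pde4b and Epb41 have them in the wild-type row.

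Among the 7 role groups compared, genes of hepatocyte metabolism and hormone response had the highest share of sites open in the knockout library alone. This group of 30 and the other role groups were put together after values of these data were known, as were the genes named from them beyond the naming rule. The groups overlap, so some sites count in more than 1 group. Nr3c1, Rora and Klf15 are also hormone and clock response genes, and Pde4b is in the immune signalling and phosphodiesterase groups. The 30 genes had 93 promoter peaks in the knockout library and 47 in the wild-type library. Of the 30, 3 had 3 or more promoter peaks in both libraries, against 98 of the 319 members. A gene could enter through either library, so the shares of a role group partly follow from the rule. Of their 99 sites, 51 (51.5%) were open in the knockout library alone, 6 (6.06%) in the wild type alone and 42 (42.4%) in both. Over all member sites the shares were 31.1%, 7.10% and 61.8%, in the same order, and over all genes 18.5%, 4.73% and 76.7%. More promoter peaks were found in the knockout library at 24 of the 30 genes, equal numbers at 3 and fewer at 3. Over the 319 members these numbers were 193, 71 and 55. Merging sites under 500 bp apart left 35 of 77 regions (45.5%) open in the knockout library alone, against 26.2% of the regions of all members. Distal peaks of the same genes were 2.30 times as many in the knockout library, against 1.53 times for all distal peaks.

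At 6 of these genes no promoter site was open in the wild-type library. Baat, the enzyme gene that joins bile acids to taurine or glycine, had 4 peaks in the knockout library and 0 in the wild-type library within 4.59 kb of chromosome 4 (49503113 to 49507706). Lipc, the gene of hepatic lipase, had 3 and 0 peaks, and Slc38a4, an amino acid transporter gene, had 3 and 0 over 13.5 kb, knockout first in both. Pfkfb1, which encodes the liver form of the enzyme that sets fructose 2,6-bisphosphate, had 3 knockout and 0 wild-type peaks on chromosome X, and 2 of its sites held a RefSeq start. The lipid kinase gene Pik3c2g had 4 knockout and 0 wild-type peaks, and the serpin gene Serpina3m had 3 and 0. Lipc had 29 distal peaks in the knockout library and 16 in the wild-type library, while Baat had 5 and 0.

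At other genes of this group a promoter was shared and further ones were open in the knockout library alone. Acsl1, the gene of a long-chain acyl-CoA synthetase, had a shared site at the gene's 5' end on chromosome 8 (46470416 to 46471384). Its sites at 19.5 and 21.0 kb were open in the knockout library alone. Slco2b1, an organic anion transporter gene, had 4 peaks in the knockout library and 1 in the wild-type library, with the shared site at its 5' end and 3 others from 3.96 to 15.2 kb inside. Slc29a1, a nucleoside transporter gene, had 5 and 2 peaks, knockout first. Its shared sites included the one at the gene's 5' end. Lifr, the gene of the leukemia inhibitory factor receptor, Klf15, the gene of a fasting-responsive transcription factor, and Zbtb20, the gene of a transcription repressor of the liver, each had 3 knockout peaks and 1 wild-type peak, and in all 3 genes the shared site was the one nearest the 5' end. Pygl, the glycogen phosphorylase gene of liver, had 3 knockout peaks and 1 wild-type peak, and its shared site lay at the RefSeq 5' end, while both others lay upstream of it.

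Nadk, the NAD kinase gene, went the other way, with 1 promoter peak in the knockout library and 3 in the wild-type library. Its site at the 5' end on chromosome 4 (155561766 to 155562552) was open in the wild-type library alone, and the next, 0.861 kb inside the gene, was shared. Akt2, the gene of an insulin-signalling kinase, had 3 knockout and 2 wild-type peaks. Its 5' site was shared, the site at 12.9 kb was open in the wild-type library alone, and those at 13.8 and 16.2 kb in the knockout library alone. Nr3c1, the glucocorticoid receptor gene, had 3 and 2 peaks over 5.18 kb of chromosome 18, knockout first, and Rora, the gene of a nuclear receptor of the circadian clock, had 3 and 2 over 637 kb.

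**Figure D3:**
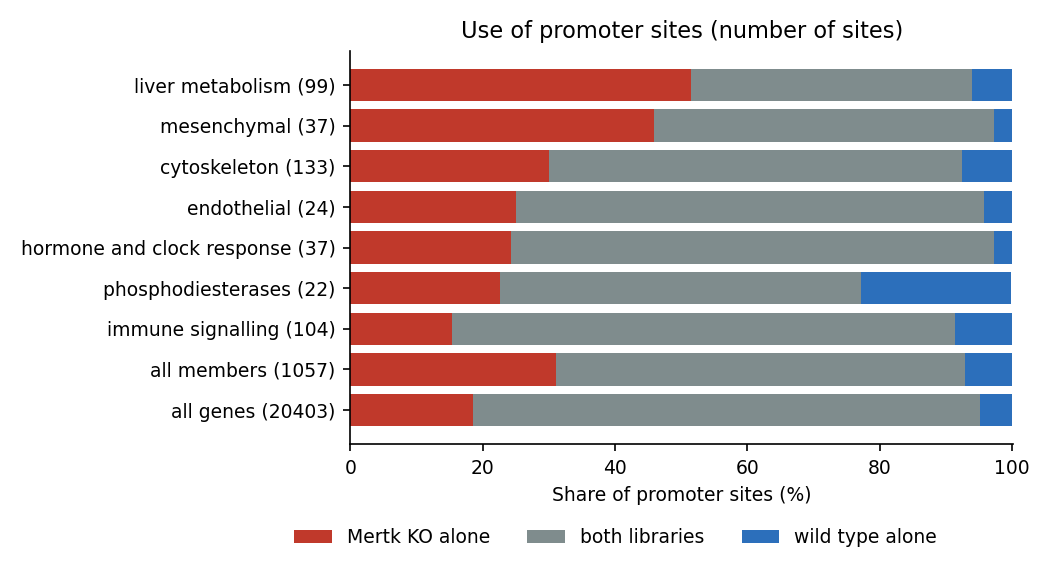
Share of promoter sites (%) open in the Mertk knockout library alone, in both libraries and in the wild-type library alone, by role group, with all members and all genes at the bottom and the number of sites in parentheses. The liver metabolism group stands at 51.5% for the knockout library alone and the immune signalling group at 15.4%.

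Genes of immune cell signalling were more evenly open. The group of 31 had 95 promoter peaks in the knockout library and 88 in the wild-type library. Of their 104 sites, 16 (15.4%) were open in the knockout library alone, 9 (8.65%) in the wild type alone and 79 (76.0%) in both. Over all genes the shares were 18.5%, 4.73% and 76.7%, in the same order. Of the 31 genes, 16 had 3 or more promoter peaks in both libraries, against 98 of the 319 members. The shares of this group thus partly follow from the rule. More promoter peaks were found in the knockout library at 13 genes, equal numbers at 12 and fewer at 6. Merged into regions, 7 of 81 (8.64%) were open in the knockout library alone, against 26.2% of the regions of all members. Distal peaks of the group were 1.12 times as many in the knockout library.

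Of the 31 genes, 12 had every site open in both libraries, against 75 of the 319 members. Pik3cd, which encodes the leukocyte form of the catalytic subunit of phosphoinositide 3-kinase, had 4 promoter peaks in each library, at 0, 0.651, 3.70 and 26.0 kb from its 5' end on chromosome 4. Adcy7, an adenylate cyclase gene of blood cells, also had 4 in each library, at 0, 10.2, 16.3 and 21.3 kb. Ripor2, the gene of an inhibitor of the small GTPase RhoA, had 4 in each over 138 kb. Satb1, the gene of a chromatin organizer of T cells, and Cd36, the gene of a scavenger receptor for fatty acids and lipoproteins, had 3 in each, all shared. Wipf1, which encodes a partner of the Wiskott-Aldrich syndrome protein in blood cells, had 5 peaks in the knockout library and 4 in the wild-type library. Tfeb, the gene of a regulator of lysosome genes, had 3 and 2, knockout first.

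Pde4b and Epb41 were blood cell genes among the 6 genes named for the largest excess in the wild-type library. Pde4b, which encodes a phosphodiesterase that breaks down cyclic AMP in leukocytes, had 3 promoter peaks in the knockout library and 5 in the wild-type library over 502 kb of chromosome 4. Its sites at 102254374 to 102255276 and 102568407 to 102569336 were open in the wild-type library alone, 167 and 481 kb inside the gene. The first, the fourth and the last site were shared. Epb41, which encodes protein 4.1 of the red cell membrane skeleton, had 2 knockout and 4 wild-type peaks over 68.9 kb of chromosome 4. Its sites at the 5' end and at 25.8 kb were shared, and those at 66.4 and 67.7 kb were open in the wild-type library alone. Gata2, the gene of a transcription factor of blood stem cells and of endothelium, had 3 peaks in each library, all shared.

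Dennd1b, which encodes an exchange factor for Rab GTPases, had 1 knockout peak and 3 wild-type peaks. Its shared site lay at the 5' end and was flanked by a wild-type site upstream and another 3.55 kb inside the gene. The other genes the rule named for an excess in the wild-type library were Sh3kbp1, Olfr56, Fbxo34 and Snx25, each with 1 knockout peak and 3 wild-type peaks. Sh3kbp1, the gene of an adaptor of receptor endocytosis, had its shared site at the 5' end on chromosome X and those of the wild-type library alone at 81.5 and 213 kb. At Fbxo34 the pair open in the wild-type library alone was narrow, 520 and 337 bp wide, and the pieces lay side by side. The 3 sites of Olfr56 lay 46.8 to 156 kb upstream of the RefSeq gene. Flrt2 had 2 knockout and 4 wild-type peaks within 5.60 kb, and its sites of the wild-type library alone were the 2 nearest the gene's 5' end.

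Endothelial and mesenchymal genes were fewer. Of 8 endothelial genes, 5 had more promoter peaks in the knockout library, 2 equal numbers and 1 fewer. Of their 24 sites, 6 (25.0%) were open in the knockout library alone, against 31.1% of all member sites and 18.5% over all genes. The 4 of these genes on the list of known endothelial genes had 6 of 13 sites (46.2%) open there alone. Clec4g, which encodes a lectin of sinusoidal endothelium, and Gata4, the gene of a transcription factor of the same cells, each had 3 knockout peaks and 1 wild-type peak. Mef2c, the gene of a transcription factor of muscle, vessels and blood cells, had 4 and 3, knockout first. Acvrl1, the gene of a BMP receptor of vessels, had 2 knockout and 3 wild-type peaks. Of 10 mesenchymal and growth factor genes, 8 had more promoter peaks in the knockout library. Of their 37 sites, 17 (45.9%) were open there alone, against the same 31.1% of all member sites and 18.5% over all genes. Pdgfra, the gene of a platelet-derived growth factor receptor of fibroblasts, had 3 knockout peaks and 1 wild-type peak, and the shared one lay 4.52 kb inside the gene. Ntrk2, a neurotrophin receptor gene, had 3 and 0 within 2.75 kb, Zfp423, a zinc finger gene, 4 and 0, and Fgf1, a fibroblast growth factor gene, 5 and 1, knockout first in each. At Zfp423 1 site nevertheless overlapped a wild-type peak that the annotation does not call its promoter. Pparg, the nuclear receptor gene of fat storage, had 3 knockout peaks and 1 wild-type peak, with the shared site at the 5' end and the others at 59.8 and 60.7 kb.

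The phosphodiesterase genes and the genes of glucocorticoid and clock response were small groups. Pde4d, a relative of Pde4b, had 5 knockout and 4 wild-type peaks over 811 kb of chromosome 13. Of its 7 sites, 3 were open in the knockout library alone, 1 in the wild type alone and 3 in both. Over 5 phosphodiesterase genes, 5 of 22 sites (22.7%) were open in the knockout library alone and 5 (22.7%) in the wild-type library alone. Over all member sites the shares were 31.1% and 7.10%, and over all genes 18.5% and 4.73%. Of 12 hormone and clock response genes, 9 had more promoter peaks in the knockout library, 2 equal numbers and 1 fewer. Of their 37 sites, 27 (73.0%) were shared, against 61.8% of all member sites and 76.7% over all genes. The clock gene Per1 and Fkbp5, a glucocorticoid-induced chaperone gene, had 3 peaks in each library, all shared. Crem, the gene of a cyclic AMP-responsive transcription factor, had 3 and 2, knockout first, and its site of the knockout library alone was 1005 bp wide.

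Other wide sites of 1 library belonged to genes named for width. In the knockout library alone these were at Il11ra1, the gene of the interleukin-11 receptor (1022 bp, 60.0 kb upstream of the RefSeq gene), Sh3d19 (1012 bp) and Rai1 (1010 bp), beside Shroom3 (1080 bp) and Zfp423 (1043 bp). In the wild-type library alone they were at Flrt2 (1027 bp), Ank2, the gene of ankyrin-B (997 bp), Atxn7 (994 bp), the non-coding host gene Mir100hg (933 bp), Pde4b (930 bp) and Myo7a, an unconventional myosin gene (919 bp). Most sites differed little in width: the median was 826 bp for sites of the knockout library alone, 822 bp for those of the wild-type library alone and 903 bp for shared sites.

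Some genes had a site open in the knockout library alone and another open in the wild-type library alone. There were 17 of 319, against 81 of the 2396 genes with 2 or more sites (3.38%). The 2396 include the members and are not matched to them for the number of sites. A gene with more sites has more chances to hold both kinds. The 17 genes were identified after values were seen and include Akt2, Ank2, Myo7a, Pde4d, Slc2a9, Rbm47 and Tnk2. Rbm47, the gene of an RNA-binding protein, had 4 knockout and 2 wild-type peaks. Its site at the RefSeq 5' end was open in the wild-type library alone, the next at 0.720 kb was shared, and those at 53.2, 69.2 and 70.6 kb were open in the knockout library alone. Slc2a9, a urate transporter gene, had 3 peaks in each library, with the site at 10.7 kb open in the knockout library alone and that at 19.1 kb in the wild-type library alone. All 17 genes also had a shared site. In 5 of the 17 the opposite sites were neighbours under 500 bp apart, such as the 91 bp between those of Akt2, so they lay in 1 region, and in 12 they lay farther apart. Close pairs are frequent among such sites: 158 of the 329 sites of the knockout library alone (48.0%) and 37 of the 75 of the wild-type library alone (49.3%) had a neighbouring site of the same gene within 500 bp, against 232 of the 653 shared sites (35.5%).

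Members were also looked up in lists of known genes, which were chosen with earlier results of these data known. The rule counts promoter peaks, called by distance to transcript starts, so genes listed for alternative promoters were favoured in advance. Of a list of genes known for alternative promoters, 17 of the 86 with a promoter peak (19.8%) were members, against 1.82% of all genes. They included Tcf4, Pde4d, Pde4b, Ank3, Epb41, Nr3c1, Rora and Nrg1, a neuregulin growth factor gene with 3 knockout and 4 wild-type peaks, and Gnas, the gene of the stimulatory G protein, with 3 in each library, all shared. The shares were 3 of 80 for hepatocyte genes (3.75%), 4 of 40 for endothelial genes (10.0%), 3 of 46 for stellate cell and fibroblast genes (6.52%), 2 of 75 for Kupffer cell and macrophage genes (2.67%), 2 of 43 for T and natural killer cell genes (4.65%), 1 of 26 for B and plasma cell genes (3.85%) and 2 of 21 for erythroid and megakaryocyte genes (9.52%). No cholangiocyte gene of 23 and no neutrophil gene of 27 was a member.

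Gene structure was read from RefSeq. The annotation calls a peak promoter by its distance to a transcript start, so a gene with more annotated starts can have more promoter peaks, and the transcript and start numbers here are not independent of the rule. Of the 319 genes, 317 were matched and 300 were protein-coding. They were long, with a median gene length of 79.9 kb and 8 RefSeq transcripts, against 28.8 kb and 4 for genes with 2 promoter peaks at most and 19.9 kb and 3 for genes with 1 at most. Start windows matched 267 members, of which 182 (68.2%) had 2 or more, against 38.9% and 15.6% in the other two classes. A RefSeq start lay inside 436 of 876 member sites (49.8%), against 58.0% and 90.0%. In the authors' annotation, which uses its own transcript set, 73.3% of knockout and 75.0% of wild-type member entries covered a transcript start outright, against 88.3% and 89.7% of all promoter entries. Members also had more distal peaks, with a median of 9 per gene in the knockout library and 6 in the wild-type library, against 3 and 2 over all genes with a promoter peak.

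In the members, position within the gene went with use. The shares by position, and those by use that held a RefSeq start, were not computed over all genes. Whether they are particular to the members was therefore not tested. Of 296 sites within 1 kb of the RefSeq 5' end, 20.6% were open in the knockout library alone, 7.77% in the wild type alone and 71.6% in both. Of 544 sites inside the gene, the shares were 35.3%, 7.35% and 57.4%, in the same order. A further 36 sites lay more than 1 kb upstream of the RefSeq gene, and 17 of them (47.2%) were open in the knockout library alone. A RefSeq start lay in 34.8% of sites of the knockout library alone, in 20.9% of those of the wild-type library alone and in 60.9% of shared sites.

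Sequence at the starts differed with use. CpG content is given as the observed number of CG over that expected from C and G in the 300-base window, 1 window per site (that of the start with the lowest coordinate). Its median was 0.33 (quartiles 0.21 and 0.57) in 94 windows of the knockout library alone and 0.63 in 14 windows of the wild-type library alone, against 0.66 (quartiles 0.36 and 0.87) in 328 shared windows. A ratio of at least 0.6 was reached by 21.3%, 57.1% and 57.6% of these windows. Over all genes the medians were 0.42, 0.30 and 0.78, in the same order. The median of sites of the knockout library alone was thus below that of shared sites there too. For the wild-type library alone, the median of the 14 member windows, 0.63, was above the 0.30 over all genes, though single windows lay below it. Among 51 member genes with windows of both kinds, the shared site had a higher ratio than the site of the knockout library alone in 41. The median difference was -0.30 for the site of the knockout library alone minus the shared site. For sites of the wild-type library alone, the shared site was higher in 6 of 9 genes, with a median difference of -0.12. These comparisons within genes were not computed over all genes, so whether they are particular to the members was not tested.

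**Figure D4:**
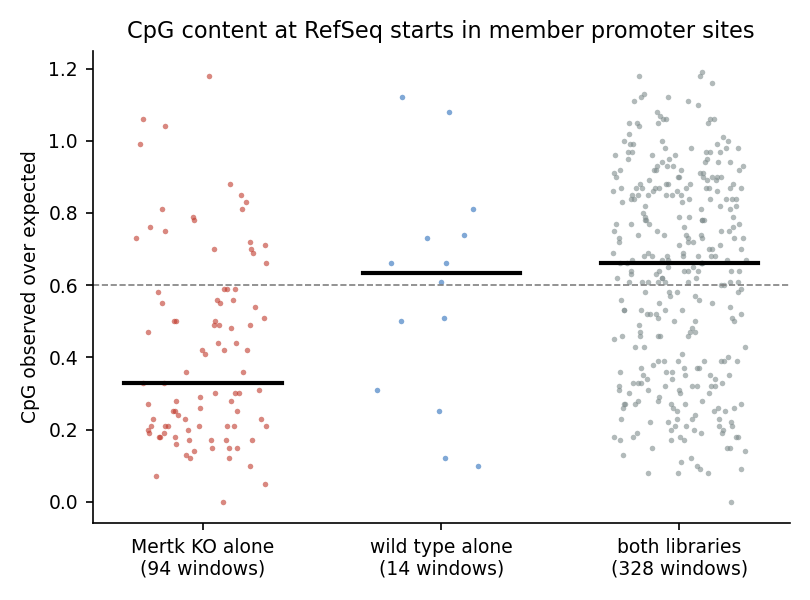
CpG observed over expected in the 300 bases at RefSeq starts, 1 point per member promoter site, for sites open in the Mertk knockout library alone, in the wild type alone and in both. Black lines are medians (0.33, 0.63 and 0.66), and the dashed line marks 0.6.

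Short motifs were searched on both strands of the same windows. The GC box GGGCGG was in 48.9% of windows of the knockout library alone, 42.9% of those of the wild-type library alone and 64.3% of shared member windows, against 41.6%, 31.2% and 67.6% of such windows over all genes, and 35.7% of all RefSeq windows, open or not. TATAAA was in 13.8%, 21.4% and 5.18% of member windows, against 12.6%, 11.2% and 6.24% over all genes. The AP-1-like motif TGANTCA was in 16.0%, 14.3% and 7.01% of member windows, against 9.71%, 11.7% and 4.76% over all genes. The motif GAGGAAGT, which the myeloid and B cell factor PU.1 can bind, was in 1 of 94, 1 of 14 and 14 of 328 member windows, against 1.74%, 7.92% and 3.45% over all genes. The window with it in the wild-type library alone was the 5' site of Nadk, whose shared site also held it. CAAAGTCCA, a form of the HNF4A site, was in 1 of the 436 member windows (0.229%), at Tmcc3, against 0.512% of the windows in sites of all genes. A motif of the HNF1 family was also in 1 of the 436, at Mia2, against 0.0569%. CCAAT was in 37.2%, 21.4% and 34.1% of member windows, against 35.8%, 32.5% and 38.6% over all genes. TGTGGTTT, a site of RUNX factors of blood cells, was in 1 of 94, 2 of 14 and 2 of 328, against 1.29%, 3.33% and 1.14% over all genes. TTGCGCAA, a site of C/EBP factors, was in 0 of the 436 member windows, against 0.309% of the windows in sites of all genes. A match of letters is a description and not a bound site.

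The rule's limit lies between genes with 2 and with 3 promoter peaks. The 250 genes with a highest count of exactly 3 averaged 2.80 promoter peaks in the knockout library and 2.10 in the wild-type library, and the 2068 genes with a highest count of 2 averaged 1.80 and 1.47. In some member genes a peak of one library overlapped separate peaks of the other and joined them into 1 site. This left 2 sites in 10 genes, and other genes, such as Plekhg5 with 4 knockout peaks in 3 sites, were also affected. At 54 members at least 1 promoter peak was also the promoter of another gene, as at the neighbouring Olfr56 and Ifi47.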

How the data were processed

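Peak positions and their gene annotation were deposited per library. Per the file headers, peaks come from cellranger-arc 2.0.2 with its mm10 reference, and each library was processed separately. No source used here gives the peak calling thresholds. The peak lists hold positions without heights. In the annotation, promoter entries lie from 1000 bp before to 100 bp after a transcript start. Raw fragment counts per barcode were also deposited by the authors and served for depth only. Intervals were handled in Python 3.11.15 (numpy 2.4.6, pandas 2.3.3, scipy 1.17.1, matplotlib 3.10.9). Overlaps gave the same numbers as bedtools 2.31.1 and were tested on simulated data. No genome was used, so sequence comes from RefSeq start windows (GRCm38.p6; 250 bases before and 50 after a start) and not from peak centres as first planned. In these windows 9 motifs were searched on both strands, and that of the HNF1 family is given by name only. A start window was assigned to a site when the start lay inside it.

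The named genes were the 10 with the most sites, up to 6 members of each cell type or alternative promoter list, the 6 with the largest excess in each library and the 6 with the widest site of each library alone, without predicted or clone-named genes (16 members). Ties in these rankings went to the gene with the widest span, so others with equal counts are not among them. Genes named beyond these, from role groups, motifs or lists, were chosen after their values were seen. Members, lists and role groups were chosen with earlier results of these data known. With 1 library per genotype, no test or p-value was computed. Peaks called separately move with depth.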

Additional observations from a re-analysis of the deposited data

How the results depend on the processing

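Of 46 values under alternative settings, 31 stayed within the interval of the value reported (for shares the exact binomial 95% interval, otherwise 1.5 times). The number of genes, 319, was 179 with peaks under 500 bp apart merged, 69 at 4 or more promoter peaks, 2387 at 2 or more and 98 with 3 or more in both libraries. The share of member peaks overlapping the other library, 66.6% in the knockout library, was 71.5% with merging, 70.7% at 2 or more and 89.0% with 3 or more in both, and in the wild-type library, 89.7%, it was 94.5% with 3 or more in both. The median gap between sites, 3.82 kb, was 17.5 kb with merging, 5.86 kb at 4 or more and 0.706 kb at 2 or more. Sites open in both libraries, 61.8%, were 66.3% with merging and 84.6% with 3 or more in both. Sites with a RefSeq start, 49.8%, were 55.7% with a start allowed within 500 bp. In an alternative chosen after seeing the data, merging sites under 500 bp apart gave 8.64% of regions open in the knockout library alone for immune signalling genes, against 15.4% of sites. These settings change the genes admitted, join neighbouring peaks or widen the window for a start. Why single values moved was not tested. CpG and motif values over whole peaks were not run, since they need a genome. No paired analysis was possible because each genotype has 1 ATAC library, and none could be left out.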
